A study of Homo sapiens with 4 samples.

Results

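The SLC25 genes encode the mitochondrial carriers, a family of membrane proteins that exchange nucleotides, phosphate, di- and tricarboxylates, amino acids, acylcarnitines, iron and enzyme cofactors between the cytosol and the mitochondrial matrix. Their transcripts were examined in Kasumi-1 cells, an established acute myeloid leukemia (AML) line, with and without knockdown of ANP32B, an acidic nuclear phosphoprotein that binds histones. Members were the rows of the deposited table whose Ensembl gene ID maps to a symbol made of SLC25A and a number, with at least 1 TPM in at least 2 of the 4 samples. TPM, a transcript's share of the total scaled to a fixed sum, is a level divided by transcript length and by the total of the sample. In each sentence below the 2 values of a group are in the order replicate 1, replicate 2. Of 39 such rows 38 met this limit, out of 16817 genes that met it in the whole table. The row left out was SLC25A34, with 0.405, 0.417 and 0.391 TPM in NC replicates 1 and 2 and sh-ANP32B replicate 2 and 2.43 TPM in sh-ANP32B replicate 1. The lowest member kept was SLC25A41, between 1.29 and 1.49 TPM. The other 9 symbols of this form in the annotation were not analysed here.

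Most carriers sit in the inner mitochondrial membrane and move 1 substrate against another. The adenine nucleotide carriers export ATP made in the matrix and the phosphate carrier supplies the phosphate for it, and both steps are needed for oxidative phosphorylation. Others are gates to a single pathway, such as the glycine carrier and the mitoferrins for heme and iron-sulfur clusters, or the ornithine carrier for the urea cycle.

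RNA was sequenced from 2 samples labelled NC and 2 labelled sh-ANP32B. All 4 are Kasumi-1 cells, the NC samples labelled as having no treatment and no short hairpin RNA (shRNA), the others as having an shRNA against ANP32B. The study's methods name a control hairpin, delivery by lentivirus and puromycin selection of stable lines, so whether the NC samples passed through infection and selection was not settled, and neither the hairpin used nor whether replicates were separate infections is given. P-values measure only the spread between these samples, which may be technical.

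ANP32B itself had 384 and 392 TPM in the NC samples and 51.8 and 41.2 TPM in the sh-ANP32B samples, and its fitted difference was -3.04 on the log2 scale with an SE of 0.1503 (limma adjusted p 0.00516). The table keeps no read counts, so the depth of each sample is unknown. Of 10 markers of myeloid progenitors and of this line 8 were tested, with CD34 and MPO not analysed here, and KIT was low, between 1.55 and 3.41 TPM. Levels of RUNX1T1, the fusion partner of RUNX1 in this line, lay between 15.6 and 31.2 TPM, and the granule protease PRTN3 reached 929 TPM. By limma 0 of the 8 passed the test (3.32% of all genes did). At an unadjusted p under 0.05 RUNX1T1 and ELANE were higher and PRTN3 and CD38 lower, 4 of 8 where 23.8% of all genes were, and their part in the values of the carriers was not tested. Among markers of other cell types the B cell genes CD79A and PAX5 stayed at or below 3.70 TPM. MS4A1, CD3D, CD3E and all genes of the erythroid and epithelial lists were not analysed here. Of the other T cell markers CD4, which myeloid cells also express, had 433 to 668 TPM, and CD2 rose from 1.65 and 1.57 TPM to 9.49 and 9.25 TPM (limma adjusted p 0.0261), and its part in the values of the carriers was not tested. Mitochondrially encoded transcripts took 12.9% and 13.1% of the NC totals and 11.4% and 8.43% of the sh-ANP32B totals. A smaller share of these transcripts raises the TPM of every other gene, and the alternatives below include a scaling without them.

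Together the 38 members summed to 2491 and 2381 TPM in the NC samples and 2410 and 2667 TPM in the sh-ANP32B samples, or 0.250% and 0.239% against 0.242% and 0.267% of the totals. The groups overlap, so no difference in the family total was seen. With mitochondrially encoded genes left out of the totals, the shares were 0.287% and 0.275% against 0.273% and 0.292%. The 5 most abundant members, SLC25A5, SLC25A37, SLC25A3, SLC25A1 and SLC25A39, held between 47.7% and 52.6% of the family sum in every sample. Of the 38 members 8 had a mean of at least 100 TPM over the 4 samples, 25 lay between 10 and 100 TPM and 5 lay below 10 TPM.

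**Figure D1:**
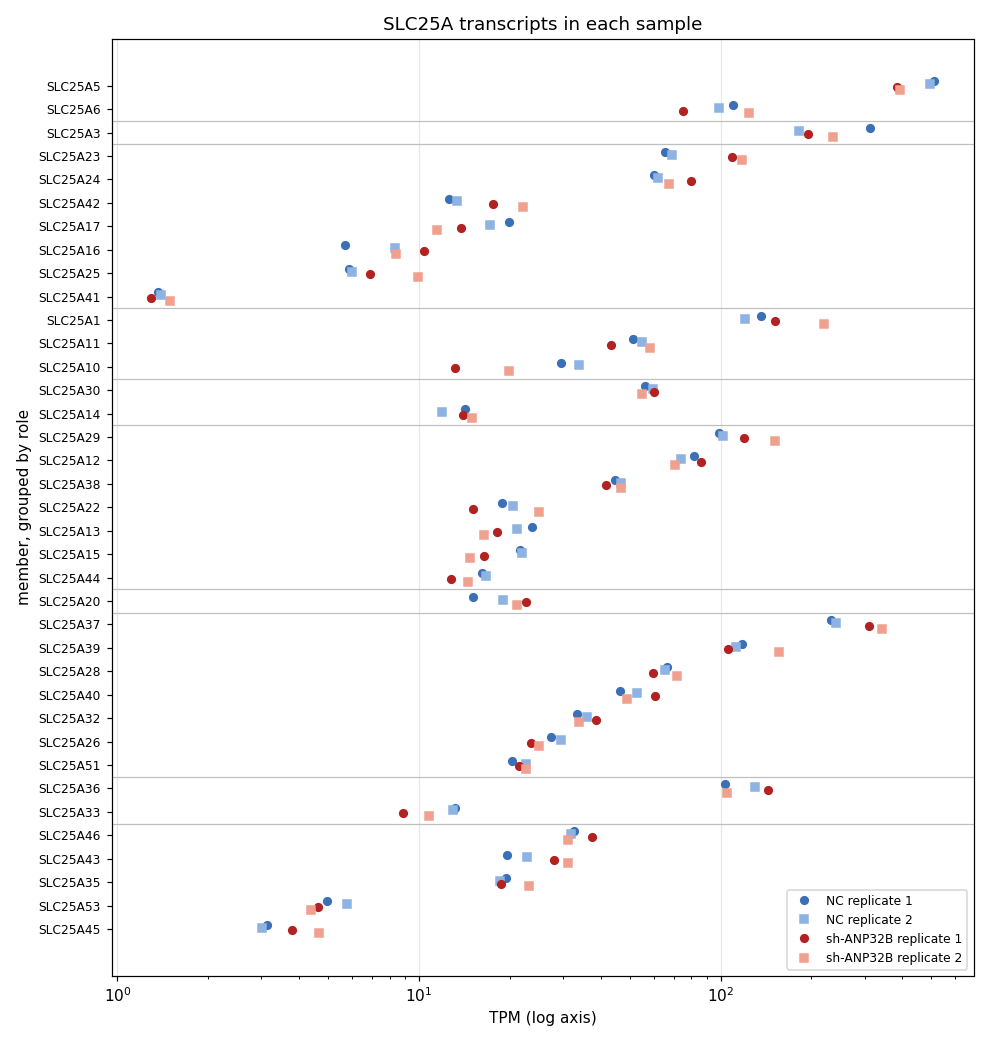
Level of 37 of the 38 SLC25A members in the 4 samples, in TPM on a log axis, with 1 marker per sample and lines between role groups (in order: adenine nucleotide, phosphate, ATP-Mg/phosphate and coenzyme A, carboxylate, uncoupling-protein relatives, amino acid, acylcarnitine, iron and cofactor, pyrimidine nucleotide, other). Levels run from 1.29 TPM (SLC25A41) to 511 TPM (SLC25A5). As ratios, which the log axis shows, SLC25A23 and SLC25A10 have the widest gaps between the group means.

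The comparison asks which of these transcripts differ with knockdown of ANP32B. Using limma on log2(TPM + 1), fitted over all 16817 genes, 1 of the 38 members, SLC25A23, rose with an adjusted p under 0.05 and 0 fell. That is 2.63% of the members, whereas 3.32% of all genes passed (2.14% higher and 1.18% lower). The share of members called is therefore not above that of all genes. At an unadjusted p under 0.05 there were 4 lower and 6 higher members, 26.3% against 23.8% of all genes (8.72% lower and 15.0% higher). For 10 lower and 11 higher members the 2 groups were separate, with no overlap of their values, 55.3% against 54.6% of all genes (21.4% lower and 33.2% higher). The median log2 fold change of the members was 0.021 and that of all genes 0.083, with 17 members below 0 and 21 above (42.1% and 57.9% of all genes). The number of calls rested on the samples used. Without sh-ANP32B replicate 1 it was 4 lower (SLC25A5, SLC25A10, SLC25A15, SLC25A17) and 7 higher (SLC25A1, SLC25A23, SLC25A29, SLC25A37, SLC25A39, SLC25A42, SLC25A43), without sh-ANP32B replicate 2 it was 3 lower (SLC25A5, SLC25A6, SLC25A10) and 3 higher (SLC25A23, SLC25A24, SLC25A37), and without NC replicate 1 or NC replicate 2 it was 0 in both directions. The log2 fold changes ranged from -0.93 for SLC25A10 to 0.75 for SLC25A23.

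**Figure D2:**
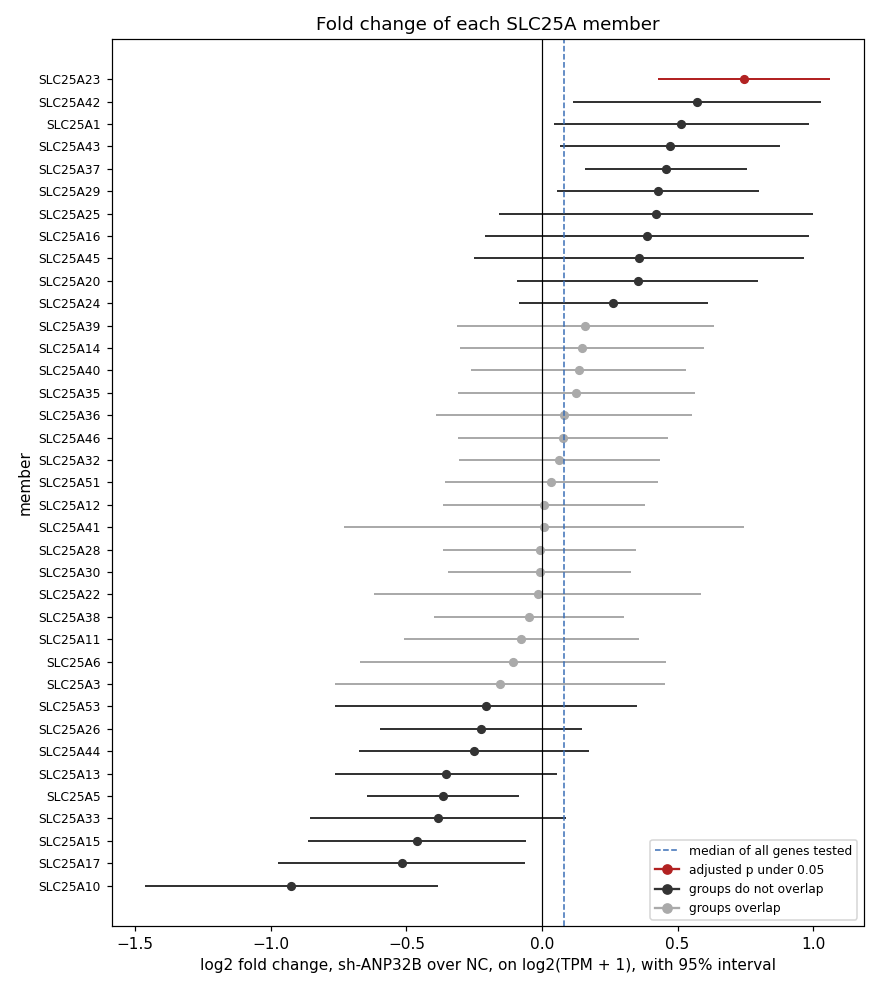
Log2 fold change of 37 of the 38 members, sh-ANP32B over NC on the log2(TPM + 1) scale, with its 95% interval from limma. SLC25A23 (red) is the member with an adjusted p under 0.05, dark points mark the other 19 members drawn whose groups do not overlap, grey points those that overlap, and the dashed line is the median of all genes tested, 0.083.

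The ATP-Mg/phosphate carriers adjust the adenine nucleotide pool of the matrix, and SLC25A23 is one of them. The gene (ENSG00000125648) lies on chromosome 19 from 6436079 to 6465203 on the minus strand in hg38. It had 65.2 and 68.9 TPM in the NC samples and 109 and 118 TPM in the sh-ANP32B samples. Both knockdown samples lay above both NC samples, with means of 67.0 ± 2.62 TPM for NC and 113 ± 6.21 TPM after knockdown (SD, n = 2 for each). The limma fit gave a log2 fold change 0.75, SE 0.131, 95% interval 0.43 to 1.06, limma adjusted p 0.0440. The call does not stand under every setting. Its adjusted p was 0.331 without NC replicate 1 and 0.256 without NC replicate 2, 0.0526 after median-of-ratios scaling and 0.122 without the abundance trend, at log2 fold changes between 0.65 and 0.79.

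Its relatives of the same substrate class were not called. SLC25A24 had 59.95 and 62.0 TPM in the NC samples and 79.6 and 67.7 TPM in the sh-ANP32B samples (log2 fold change 0.26, SE 0.145, 95% interval -0.083 to 0.61, limma adjusted p 0.325). SLC25A25 had 5.88 and 6.01 TPM in the NC samples and 6.90 and 9.93 TPM in the sh-ANP32B samples (log2 fold change 0.42, SE 0.242, 95% interval -0.16 to 1.00, limma adjusted p 0.345). Its exons share 665 bases with SLC25A25-AS1, an antisense RNA at 1.23 to 3.71 TPM, and whether strand was used in counting is not stated, so its value is uncertain. SLC25A41 begins 2299 bases from SLC25A23 on the same strand and stayed between 1.29 and 1.49 TPM, with overlapping groups and a log2 fold change of 0.0074 (95% interval -0.73 to 0.74). SLC25A23 made up 49.2% and 49.8% of the summed TPM of these 4 genes in NC and 55.4% and 59.8% in sh-ANP32B.

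The coenzyme A carriers lie beside this class in the family. SLC25A42, which brings coenzyme A into the matrix, had 12.5 and 13.4 TPM in the NC samples and 17.6 and 22.2 TPM in the sh-ANP32B samples (log2 fold change 0.57, SE 0.190, 95% interval 0.12 to 1.03, limma adjusted p 0.138). SLC25A16, a relative also linked to coenzyme A, had 5.68 and 8.30 TPM in the NC samples and 10.4 and 8.36 TPM in the sh-ANP32B samples (log2 fold change 0.39, SE 0.249, 95% interval -0.21 to 0.98, limma adjusted p 0.397). Its log2 fold change was 0.15 without NC replicate 1, 0.63 without NC replicate 2 and 0.25 without sh-ANP32B replicate 1. SLC25A17 differs from them in place, since it is the peroxisomal carrier of coenzyme A and other cofactors, and in direction. Its values were 19.8 and 17.2 TPM in the NC samples and 13.8 and 11.5 TPM in the sh-ANP32B samples (log2 fold change -0.52, SE 0.189, 95% interval -0.97 to -0.066, limma adjusted p 0.167). None of these 3 passed the test, although the groups of each were separate, as they were for 54.6% of all genes. Of the 7 members of the ATP-Mg/phosphate and coenzyme A class 6 had a positive log2 fold change, 5 of them with separate groups, and SLC25A17 was below 0. Of all genes 57.9% were above 0 and 33.2% were separate and higher.

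The adenine nucleotide carriers exchange cytosolic ADP for matrix ATP. SLC25A5, the form of dividing cells and the most abundant member in every sample, had 511 and 493 TPM in the NC samples and 386 and 393 TPM in the sh-ANP32B samples. Both knockdown samples lay below both NC samples, with means of 502 ± 12.8 TPM for NC and 389.5 ± 5.18 TPM after knockdown (SD, n = 2 for each). The limma fit gave a log2 fold change -0.37, SE 0.116, 95% interval -0.64 to -0.088, limma adjusted p 0.126. Processed copies of this gene lie across the genome and can share its reads. One of them, SLC25A5P1, had 3.96 and 4.50 TPM in the NC samples against 2.18 and 2.15 TPM after knockdown (log2 fold change -0.72, limma adjusted p 0.158). SLC25A6, the close paralog in the pseudoautosomal region of the sex chromosomes, had 109.7 and 99.0 TPM in the NC samples and 75.2 and 124 TPM in the sh-ANP32B samples. The 2 knockdown samples fell on either side of the NC samples, and its log2 fold change was -0.11 (95% interval -0.67 to 0.45). Taken as a sum, SLC25A5 and SLC25A6 reached 621 and 592 TPM in NC against 461 and 517 TPM after knockdown. SLC25A5 alone made up 20.5% and 20.7% of the family sum in NC and 16.0% and 14.7% in sh-ANP32B.

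SLC25A3 carries phosphate, and copper, into the matrix. Its values were 312 and 182 TPM in the NC samples and 194 and 235 TPM in the sh-ANP32B samples, so both knockdown samples lay between the NC samples, and the log2 fold change of -0.16 (95% interval -0.76 to 0.45) was within their spread. Without NC replicate 1 it was 0.23 and without NC replicate 2 -0.54.

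Carboxylate carriers link the citric acid cycle to lipid synthesis and gluconeogenesis. SLC25A10, which exchanges malate and succinate for phosphate, had 29.6 and 33.9 TPM in the NC samples and 13.2 and 19.9 TPM in the sh-ANP32B samples, with both knockdown samples below both NC samples. The means were 31.7 ± 3.05 TPM for NC and 16.5 ± 4.76 TPM after knockdown (SD, n = 2 for each). This was the lowest log2 fold change of the family (log2 fold change -0.93, SE 0.225, 95% interval -1.46 to -0.39, limma adjusted p 0.0736). It missed the threshold by this test. It reached it after GC correction (log2 fold change -1.19, limma adjusted p 0.00707), without sh-ANP32B replicate 1 (-0.64, limma adjusted p 0.0134) and without sh-ANP32B replicate 2 (-1.21, limma adjusted p 0.00177). It did not reach it without NC replicate 1 (limma adjusted p 0.121), without NC replicate 2 (0.299) or without the abundance trend (0.149). SLC25A1, the citrate carrier that feeds acetyl-CoA to fatty acid and sterol synthesis, stood on the other side, with 136 and 120.0 TPM in the NC samples and 152 and 220.2 TPM in the sh-ANP32B samples (log2 fold change 0.51, SE 0.195, 95% interval 0.047 to 0.98, limma adjusted p 0.179). Replicate 2 was the higher knockdown sample, and without it the log2 fold change was 0.25 (limma adjusted p 0.128) against 0.78 (limma adjusted p 0.00115) without replicate 1. SLC25A11, the oxoglutarate-malate carrier of the malate-aspartate shuttle, had 51.4 and 54.8 TPM in the NC samples and 43.3 and 58.4 TPM in the sh-ANP32B samples, with overlapping groups and a log2 fold change of -0.076 (95% interval -0.51 to 0.35).

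Among the 7 amino acid carriers 5 had a negative and 2 a positive log2 fold change (42.1% and 57.9% of all genes did). By limma 0 passed the test (3.32% of all genes), with 2 at an unadjusted p under 0.05 (23.8% of all genes). SLC25A15, the ornithine-citrulline carrier, had 21.6 and 22.0 TPM in the NC samples and 16.4 and 14.8 TPM in the sh-ANP32B samples (log2 fold change -0.46, SE 0.167, 95% interval -0.86 to -0.062, limma adjusted p 0.163). Both knockdown samples were below both NC samples. The microRNA gene MIR621 lies within its exons on the same strand and can share its reads. It is listed at 25.5 and 20.1 TPM in NC against 11.2 and 10.7 TPM after knockdown (limma adjusted p 0.0482). SLC25A13, the aspartate-glutamate carrier citrin, had 23.7 and 21.1 TPM in the NC samples and 18.2 and 16.4 TPM in the sh-ANP32B samples (log2 fold change -0.35, SE 0.170, 95% interval -0.76 to 0.052, limma adjusted p 0.264). Its paralog SLC25A12, or aralar, had 81.6 and 74.0 TPM in the NC samples and 86.4 and 70.7 TPM in the sh-ANP32B samples, with overlapping groups and a log2 fold change of 0.0084 (95% interval -0.36 to 0.38).

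The remaining amino acid carriers covered basic, branched-chain and glycine transport. SLC25A29, which carries basic amino acids, had 98.4 and 102 TPM in the NC samples and 119.7 and 152 TPM in the sh-ANP32B samples (log2 fold change 0.43, SE 0.154, 95% interval 0.058 to 0.80, limma adjusted p 0.163), the only member of this class with a positive log2 fold change and separate groups. SLC25A44, a carrier of branched-chain amino acids, had 16.1 and 16.7 TPM in the NC samples and 12.8 and 14.5 TPM in the sh-ANP32B samples (log2 fold change -0.25, SE 0.177, 95% interval -0.67 to 0.17, limma adjusted p 0.439). The glutamate carrier SLC25A22 and the glycine carrier SLC25A38, which is needed for heme synthesis, had log2 fold changes of -0.016 and -0.049 with overlapping groups. SLC25A22 had 15.1 TPM in sh-ANP32B replicate 1 and 25.0 TPM in replicate 2, on either side of 18.9 and 20.5 TPM in NC.

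Iron enters the matrix through the mitoferrins, of which SLC25A37 is the erythroid and myeloid form and SLC25A28 the general one. SLC25A37, with the second highest mean of the family, had 233 and 242 TPM in the NC samples and 311 and 343 TPM in the sh-ANP32B samples. Both knockdown samples lay above both NC samples, with means of 238 ± 6.57 TPM for NC and 327 ± 22.3 TPM after knockdown (SD, n = 2 for each). The limma fit gave a log2 fold change 0.46, SE 0.123, 95% interval 0.16 to 0.75, limma adjusted p 0.0905. It did not pass. Its limma adjusted p was 0.0313 after GC correction, 0.0602 with a replicate block added to that, 0.00245 and 0.0124 without sh-ANP32B replicates 1 and 2, and 0.676 and 0.614 without NC replicates 1 and 2. SLC25A28 had 66.3 and 65.2 TPM in the NC samples and 59.8 and 71.5 TPM in the sh-ANP32B samples, with overlapping groups and a log2 fold change of -0.0078 (95% interval -0.36 to 0.34).

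None of the 8 iron, glutathione and cofactor carriers passed the test by limma (3.32% of all genes did). At an unadjusted p under 0.05 there was 1, SLC25A37 (23.8% of all genes). The glutathione carriers SLC25A39 and SLC25A40 had log2 fold changes of 0.16 and 0.14 with overlapping groups, and SLC25A39 had 118 and 112 TPM in the NC samples and 106 and 157 TPM in the sh-ANP32B samples. SLC25A26, which brings S-adenosylmethionine into the matrix, had 27.5 and 29.6 TPM in the NC samples and 23.6 and 24.9 TPM in the sh-ANP32B samples, which is -0.22 on the log2 scale (limma adjusted p 0.427). Both knockdown samples lay below both NC samples. The folate carrier SLC25A32 and the NAD carrier SLC25A51 had log2 fold changes of 0.064 and 0.034, with overlapping groups. Exons of SLC25A32 share 406 bases with DCAF13 on the opposite strand, which had a log2 fold change of -0.79, so its value is uncertain if strand was not used.

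Pyrimidine nucleotides for mitochondrial RNA and DNA are carried by SLC25A33 and SLC25A36. SLC25A33 had 13.2 and 12.9 TPM in the NC samples and 8.82 and 10.8 TPM in the sh-ANP32B samples (log2 fold change -0.38, SE 0.196, 95% interval -0.85 to 0.084, limma adjusted p 0.289). SLC25A36 was 7.84 to 16.3 times as abundant by TPM, with 103 and 130.1 TPM in the NC samples and 144 and 105 TPM in the sh-ANP32B samples, overlapping groups and a log2 fold change of 0.081. The acylcarnitine carrier SLC25A20, which admits fatty acids to beta-oxidation, had 15.0 and 19.0 TPM in the NC samples and 22.6 and 21.1 TPM in the sh-ANP32B samples (log2 fold change 0.35, SE 0.185, 95% interval -0.087 to 0.79, limma adjusted p 0.2997).

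Of the less defined members, SLC25A43 had 19.5 and 22.7 TPM in the NC samples and 28.0 and 31.2 TPM in the sh-ANP32B samples (log2 fold change 0.47, SE 0.168, 95% interval 0.071 to 0.87, limma adjusted p 0.157). SLC25A43 and SLC25A5 are neighbours on the plus strand of chromosome X, 13943 bases apart, and had log2 fold changes of 0.47 and -0.37, each with separate groups. SLC25A45 and SLC25A53 were low, between 3.004 and 5.79 TPM, with log2 fold changes of 0.36 and -0.21 and separate groups. SLC25A46, which acts at the outer membrane in mitochondrial dynamics, SLC25A35, and the uncoupling-protein relatives SLC25A14 and SLC25A30 had log2 fold changes of 0.078, 0.13, 0.15 and -0.0089, all with overlapping groups. Exons of SLC25A35 share 1134 bases with RANGRF on the opposite strand, so its value is uncertain if strand was not used. The same holds for SLC25A40 (145 bases with DBF4) and SLC25A30 (98 bases with TPT1-AS1).

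Related carriers were next compared within each sample, as ratios of their TPM values, which do not depend on the total of the sample. With 2 samples against 2 an exact permutation test cannot give a two-sided p below 0.333, so these ratios are a description. The pairs were not chosen by protein identity. SLC25A1 over SLC25A10 was 4.59 and 3.54 in NC replicates 1 and 2 and 11.5 and 11.1 in sh-ANP32B replicates 1 and 2, the widest gap of the 7 pairs. This pair sets the lowest log2 fold change of the family (-0.93) against one of 0.51, so its gap restates those values. SLC25A37 over SLC25A28 was 3.51 and 3.71 in NC replicates 1 and 2 and 5.20 and 4.79 in sh-ANP32B replicates 1 and 2, and SLC25A12 over SLC25A13 was 3.45 and 3.50 in NC replicates 1 and 2 and 4.75 and 4.31 in sh-ANP32B replicates 1 and 2. Both ratios were higher in both knockdown samples than in either NC sample, as was that of SLC25A23 over SLC25A24. The last was 1.09 and 1.11 in NC replicates 1 and 2 and 1.37 and 1.74 in sh-ANP32B replicates 1 and 2. Members of a pair can differ in GC content, as SLC25A23 and SLC25A24 (58.7% and 38.5%) or SLC25A5 and SLC25A6 (47.8% and 60.7%) do. The sh-ANP32B replicates differed along GC content, as described below, and its part in these ratios was not tested. The groups overlapped for SLC25A5 over SLC25A6, which was 4.66 and 4.98 in NC replicates 1 and 2 and 5.13 and 3.17 in sh-ANP32B replicates 1 and 2, and for SLC25A39 over SLC25A40 and SLC25A36 over SLC25A33.

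**Figure D3:**
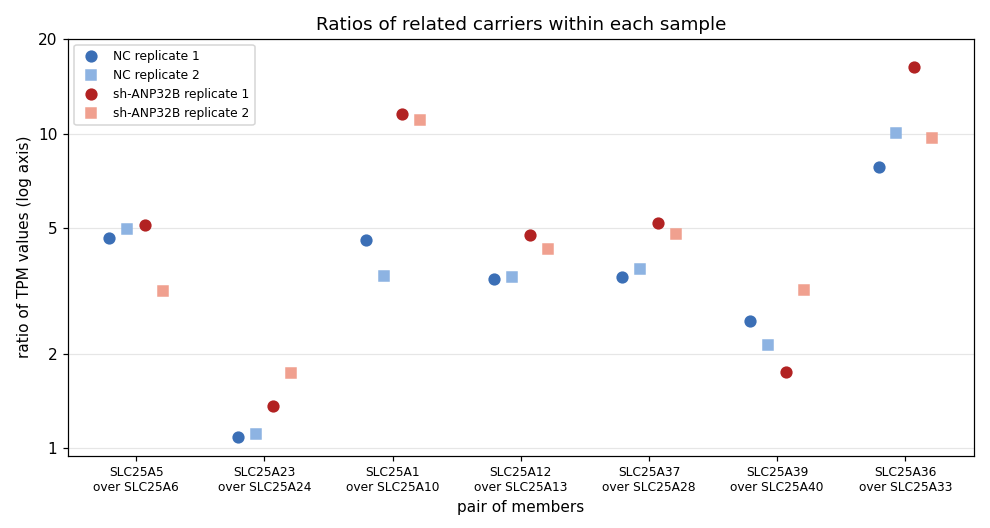
Ratios of the TPM values of 7 pairs of related carriers in each sample, on a log axis. The ratio of SLC25A1 to SLC25A10 is 3.54 to 4.59 in NC and 11.1 to 11.5 in sh-ANP32B, whereas SLC25A5 over SLC25A6 in sh-ANP32B replicate 2 (3.17) lies below the other 3 samples.

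The 2 sh-ANP32B replicates differed from each other along the GC content of the transcripts, and this touched many members. Across the 38 members the difference of sh-ANP32B replicate 2 minus replicate 1 correlated with the GC content of the longest transcript at Pearson r 0.856 and Spearman rho 0.837, against -0.081 and -0.161 for the NC replicates. Over the 15427 genes with a GC value the same correlation was 0.499 and 0.577 in sh-ANP32B and -0.129 and -0.206 in NC. Members share their libraries and are not replicates, and these values describe the samples. All 13 members with a GC content of at least 55% were higher in replicate 2, with a median log2 difference of 0.42, and 11 of the 13 members under 45% were lower, with a median of -0.23. SLC25A1, SLC25A10, SLC25A6, SLC25A22 and SLC25A39, each with a GC content of at least 59.4%, were higher in replicate 2 by 0.54 to 0.71 on the log2 scale between the knockdown replicates. The log2 fold changes between groups had a Pearson r of 0.144 with GC content over the same members. With GC content removed from each sample by a smooth fit, SLC25A10, SLC25A5 and SLC25A15 fell and SLC25A23 and SLC25A37 rose with an adjusted p under 0.05. The same correction lowered the log2 fold changes of SLC25A1 to 0.24, SLC25A29 to 0.23, SLC25A25 to 0.24, SLC25A42 to 0.37 and SLC25A45 to 0.15, none of them called. With a replicate block added to it, SLC25A10 and SLC25A23 passed, and SLC25A5, SLC25A15 and SLC25A37 had limma adjusted p of 0.0666, 0.0662 and 0.0602.

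**Figure D4:**
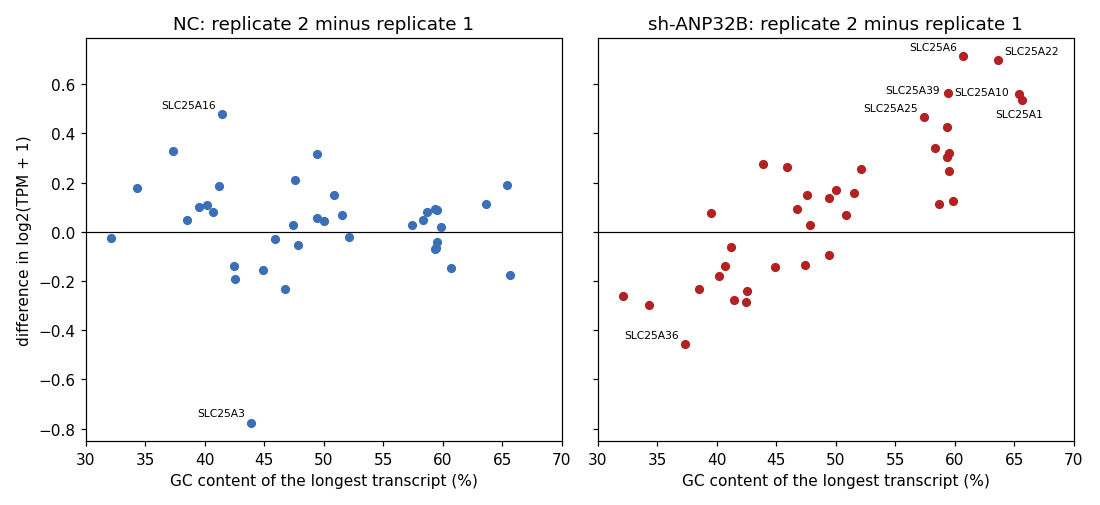
Difference in log2(TPM + 1) between replicate 2 and replicate 1 of each group for 37 of the 38 members, against the GC content of the longest transcript in percent. In NC Spearman's rho over all 38 is -0.161 and SLC25A3 lies apart, whereas in sh-ANP32B they rise with GC content (Spearman rho 0.837).

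Promoter sequence was looked at because MYC, whose product binds the hexamer CACGTG with its partner MAX, fell. Its level was 131 and 144 TPM in NC against 56.7 and 63.2 TPM after knockdown (limma adjusted p 0.0261). RefSeq promoter windows (GRCh38.p14, 250 bases before to 50 after the start site) were found for 31 members, 40 windows in all. CACGTG, which reads the same on both strands, was in 8 of the 40 windows (20%), those of SLC25A13, SLC25A22, SLC25A26, SLC25A33, SLC25A36, SLC25A38, SLC25A46 and SLC25A51, against 7.27% of all 34961 windows and 9.80% of the windows of genes tested here. The log2 fold changes of these 8 members ran from -0.38 to 0.081. By limma 0 of the 8 passed the test (3.32% of all genes did) and 0 had an unadjusted p under 0.05 (23.8% of all genes did). Any part of the hexamer in these values was not tested. SLC25A23 and SLC25A10 were not among these 8 members, but a member without a window could not be among them. A match is a description and not a binding site. Stretches of 60 bases that hold the hexamer are shown 5′ to 3′ for 4 of them, with the hexamer in capitals, because SLC25A33 and SLC25A13 have the lowest log2 fold changes of the 8 and SLC25A36 the highest, with SLC25A38 near 0. The hexamer begins 26, 154, 143 and 44 bases before the start site of SLC25A33, SLC25A13, SLC25A36 and SLC25A38. They lie at chr1:9539405-9539464 on the plus strand, chr7:96322220-96322279 on the minus strand, chr3:140941666-140941725 on the plus strand and chr3:39383299-39383358 on the plus strand.
SLC25A33: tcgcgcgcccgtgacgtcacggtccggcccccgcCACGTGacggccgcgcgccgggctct
SLC25A13: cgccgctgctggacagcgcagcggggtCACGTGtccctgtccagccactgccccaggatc
SLC25A36: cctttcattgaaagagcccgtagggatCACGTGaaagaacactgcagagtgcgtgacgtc
SLC25A38: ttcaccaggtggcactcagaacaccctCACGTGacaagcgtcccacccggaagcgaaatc

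Other genes that transport or use the same substrates were taken as lists. Of 76 such genes 72 were tested, and 2 rose and 2 fell, where 2.14% of all genes rose and 1.18% fell. The median log2 fold change was -0.11 against 0.083 for all genes. At an unadjusted p under 0.05 there were 11 lower and 9 higher, against 8.72% and 15.0% of all genes, and these background shares apply to each list below. Among 22 other mitochondrial membrane transporters 2 rose and 0 fell by limma, with 2 lower and 3 higher at an unadjusted p under 0.05. SFXN3, a sideroflexin of the family that carries serine into mitochondria, had 65.0 and 66.1 TPM in the NC samples and 132 and 131 TPM in the sh-ANP32B samples (log2 fold change 1.00, SE 0.125, 95% interval 0.70 to 1.296, limma adjusted p 0.0299). ABCB6, a porphyrin transporter, had 3.10 and 2.65 TPM in the NC samples and 9.32 and 7.51 TPM in the sh-ANP32B samples (log2 fold change 1.28, SE 0.241, 95% interval 0.70 to 1.85, limma adjusted p 0.0459). The knockdown samples of both genes were above the NC samples. Of 3 tested family members that carry other symbols, UCP2, MTCH1 and MTCH2, 0 passed by limma, with 1 at an unadjusted p under 0.05. MTCH2, an outer membrane member, had the lowest log2 fold change, -0.58 (limma adjusted p 0.0777). UCP3 was below the limit and UCP1 was not analysed here.

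Of 10 enzymes of the malate-aspartate shuttle and citrate metabolism 9 had a negative log2 fold change (42.1% of all genes did), 4 were lower and 0 higher at an unadjusted p under 0.05, and 1 fell (1.18% of all genes). That was IDH2, the mitochondrial NADP-dependent isocitrate dehydrogenase, with 228 and 232 TPM in the NC samples and 129.7 and 151 TPM in the sh-ANP32B samples (log2 fold change -0.71, SE 0.133, 95% interval -1.03 to -0.39, limma adjusted p 0.0455). Of 11 tested enzymes of mitochondrial glycine, folate, heme and iron-sulfur metabolism 1 fell, with 4 lower and 3 higher at an unadjusted p under 0.05 (8.72% and 15.0% of all genes). In that list 7 genes had a negative and 4 a positive log2 fold change. By limma 0 genes passed among 8 ornithine, proline and branched-chain enzymes, 8 acylcarnitine and beta-oxidation enzymes and 10 glutathione and NAD enzymes, with 0, 2 and 1 at an unadjusted p under 0.05. The medians of these 3 lists were -0.090, 0.11 and -0.016.

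SLC25A23 had a log2 fold change between 0.55 and 0.80 and SLC25A10 between -1.21 and -0.64 over 14 alternatives. In all, 22 members kept the sign of their log2 fold change in every alternative and 16 changed it in at least 1. The 16 all had reported log2 fold changes between -0.16 and 0.16.

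**Figure D5:**
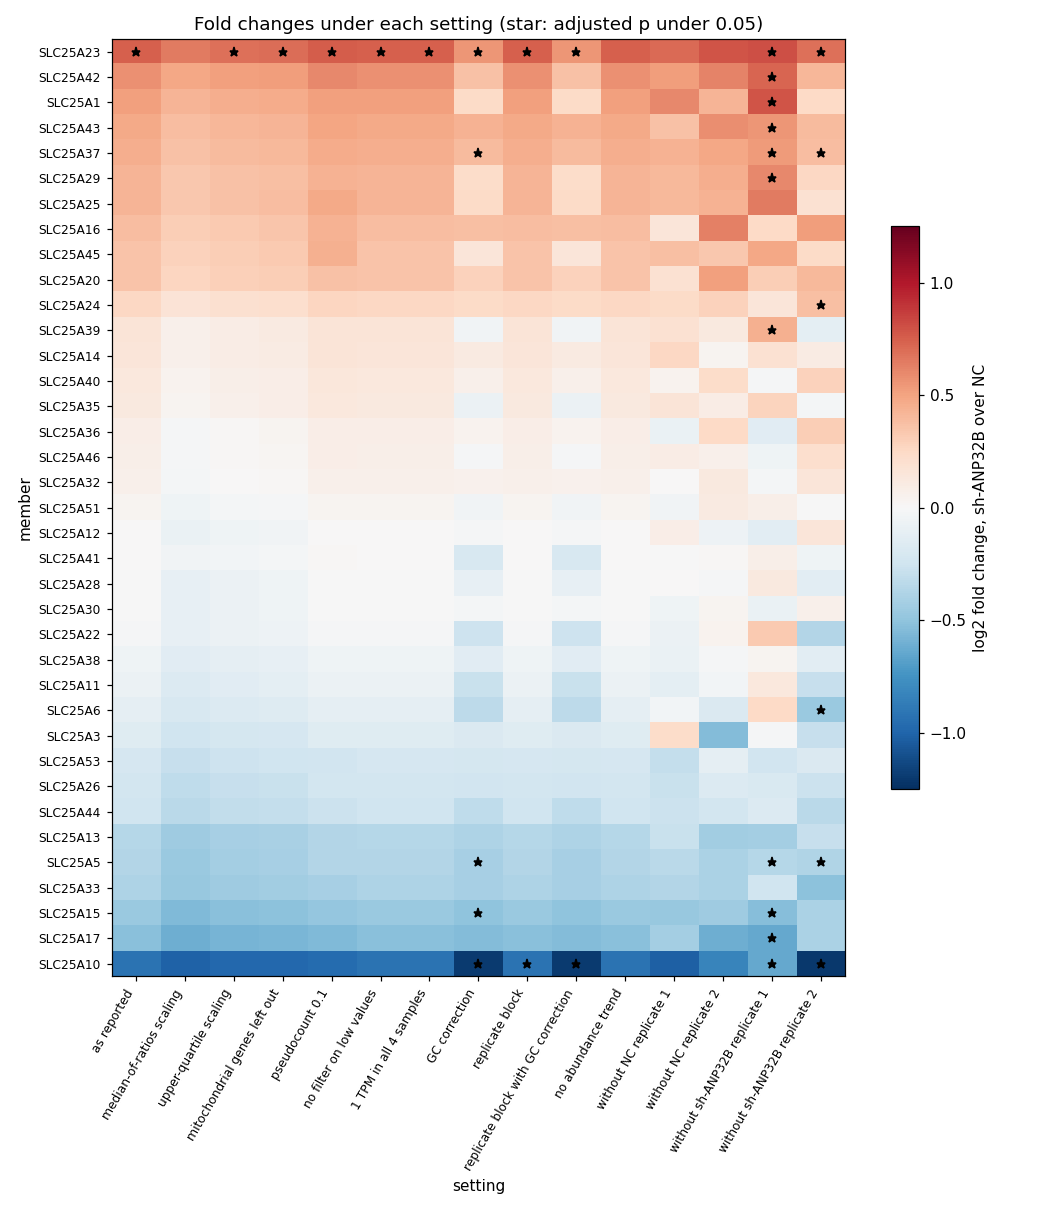
Log2 fold change of 37 of the 38 members (rows, ordered by the reported value) under the reported fit and 14 alternatives (columns), with red for higher and blue for lower in sh-ANP32B. Stars mark an adjusted p under 0.05, which SLC25A23 has in 10 alternatives and SLC25A10 in 5.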

How the data were processed

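The authors aligned the reads of 2 NC and 2 sh-ANP32B Kasumi-1 samples to hg38 with HISAT2 2.0.5 (submitters' processing notes). The deposited values are TPM, identified from the values. The quantifier, its annotation and filters are not given in the sources used here, and TPM holds no depth, so no counting interval was computed. IDs were matched to GENCODE v44 (16986 of 18567 rows). Genes reaching 1 TPM in 2 or more samples were converted to log2(TPM + 1), which understates changes of low genes, and compared in limma 3.58.1 under R 4.3.3, with the prior variance following abundance, two-sided and Benjamini-Hochberg adjusted over 16817 genes. The count test of the study, DESeq2, could not be applied to TPM. GC content is that of the longest transcript. Alternatives were 2 other scalings (median-of-ratios and upper-quartile), leaving out mitochondrially encoded genes, a pseudocount of 0.1, no filter or 1 TPM in all 4 samples, a per-sample GC correction (loess, span 0.3, over the 15427 tested genes with a GC value), a replicate block, no trend, and leaving out each sample. The test was also run on simulated data with independent noise of equal spread in both groups. That setting leaves out the GC-linked difference between the sh-ANP32B replicates, so it does not show how the test behaves here. Values were described for members with an adjusted p under 0.05, the 5 most abundant and the 8 largest log2 fold changes each way, and list genes with an adjusted p under 0.05. The rule's paralog pairs and protein sequences were left out, and sequences are from RefSeq promoters. The values of 1 member and of some list genes entered the counts and are not reported here. The members, lists and tests were chosen with earlier results of these data known. Scripts used Python 3.11.15, pandas 2.3.3, scipy 1.17.1 and matplotlib 3.10.9.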

Additional observations from a re-analysis of the deposited data

How the results depend on the processing

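With 2 samples a group, TPM values of unknown depth and 1 cell line, small differences could not be resolved, and which samples are used moved the counts most. Leaving out a sample leaves its group with 1, which is then assumed to vary like the other group. Members lower with an adjusted p under 0.05 (0 reported) were 3 after GC correction, 1 with a replicate block and 1 with both, and 0 to 4 with a sample left out. Members higher (1 reported) were 0 after median-of-ratios scaling, 2 after GC correction, 0 without the abundance trend and 0 to 7 with a sample left out. Pathway list genes lower (2 reported) were 12 after GC correction, 9 with block and GC correction, 0 without the trend and 0 to 16 with a sample left out. Those higher (2 reported) were 1 after median-of-ratios scaling, upper-quartile scaling or leaving out mitochondrial genes, 5 after GC correction, 4 with block and GC correction, 0 without the trend and 0 to 14 with a sample left out. The median log2 fold change of the members (0.021 reported) was -0.051, -0.028 and -0.045 after median-of-ratios scaling, upper-quartile scaling and GC correction (with or without the block), where the median of all genes was 0.001, 0.028 and -0.0081, and -0.013 to 0.069 with a sample left out. Over all genes tested (199 lower and 360 higher reported), calls ran from 0 to 1376 lower and 0 to 1145 higher, and with a sample left out from 59 to 1628 lower and 214 to 2451 higher. Without the trend limma called 0 genes, with 3701 at an unadjusted p under 0.05, and ANP32B had an adjusted p of 0.0929 at -3.04. The log2 fold change of ANP32B was -3.20 to -2.88 with a sample left out. The replicate numbers did not pair the samples (deviations of same-numbered samples had Pearson r -0.093). With a replicate block 491 genes were lower and 982 higher, SLC25A10 had a limma adjusted p of 0.00708 at -0.93, and SLC25A23 one of 0.0141. In that fit ANP32B had a limma adjusted p of 9.4e-42 at the same -3.04. P-values of the block fit thus rest mostly on the spread pooled over genes and little on each gene's own. Of 532 member fits 460 kept both direction and side of the threshold, 21 passed it anew, 4 lost it (all SLC25A23) and 47 turned sign, in 16 members. The sign turned after median-of-ratios scaling for SLC25A41 (-0.047), SLC25A12 (-0.084), SLC25A51 (-0.056), SLC25A32 (-0.028), SLC25A46 (-0.014) and SLC25A36 (-0.012). The sign turned after upper-quartile scaling for SLC25A41 (-0.029), SLC25A12 (-0.054) and SLC25A51 (-0.027). The sign turned with mitochondrial genes left out for SLC25A41 (-0.023), SLC25A12 (-0.041) and SLC25A51 (-0.014). The sign turned after GC correction, with or without the block for SLC25A41 (-0.20), SLC25A12 (-0.011), SLC25A51 (-0.046), SLC25A46 (-0.015), SLC25A35 (-0.077) and SLC25A39 (-0.044). With a sample left out, the log2 fold change of members that turned sign ran for SLC25A3 from -0.54 to 0.23, SLC25A28 from -0.13 to 0.12, SLC25A41 from -0.055 to 0.069, SLC25A51 from -0.040 to 0.11, SLC25A36 from -0.15 to 0.31, SLC25A22 from -0.36 to 0.33, SLC25A30 from -0.078 to 0.060, SLC25A12 from -0.13 to 0.15, SLC25A6 from -0.47 to 0.25, SLC25A11 from -0.29 to 0.14, SLC25A38 from -0.13 to 0.029, SLC25A32 from -0.026 to 0.15, SLC25A46 from -0.052 to 0.21, SLC25A40 from -0.013 to 0.28, SLC25A35 from -0.025 to 0.28 and SLC25A39 from -0.12 to 0.44. Without turning sign, leaving out 1 sample moved by over 1.5 times SLC25A33 (-0.25 without sh-ANP32B replicate 1), SLC25A44 (-0.17 without sh-ANP32B replicate 1), SLC25A53 (-0.11 without NC replicate 2), SLC25A14 (0.26 without NC replicate 1 and 0.030 without NC replicate 2), SLC25A24 (0.15 without sh-ANP32B replicate 1), SLC25A20 (0.19 without NC replicate 1), SLC25A45 (0.23 without sh-ANP32B replicate 2), SLC25A16 (0.15 without NC replicate 1, 0.63 without NC replicate 2 and 0.25 without sh-ANP32B replicate 1), SLC25A25 (0.65 without sh-ANP32B replicate 1 and 0.19 without sh-ANP32B replicate 2), SLC25A29 (0.26 without sh-ANP32B replicate 2) and SLC25A1 (0.78 without sh-ANP32B replicate 1 and 0.25 without sh-ANP32B replicate 2).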
